A study of Mus musculus with 12 samples.

Results

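The genes described here build the synaptonemal complex and carry out meiotic recombination. They were 33 genes chosen by symbol: 4 for meiotic cohesin, 6 for the chromosome axis and its regulator, 5 for the central region of the complex, 5 for break formation, 7 for strand exchange, 5 for crossover maturation, and the germ cell surface gene Tex101. Of the 33, 30 had a named probe among the 19057 genes with one on the array. Rad21l, Sycp2l and Prdm9 had no named probe and were not analysed here. Each gene was represented by its brightest probe.

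In meiotic prophase, sister chromatids are held by cohesins that carry germ cell subunits, and each chromosome is folded along a protein axis. Homologous chromosomes then pair and are joined along their length by the synaptonemal complex, whose transverse filaments meet in a central element. SPO11 cuts the DNA at many sites, DMC1 and its partners use the broken ends to find the homologue, and a few of the joined sites mature into crossovers. In the mouse testis the first germ cells to reach this stage do so together, in the first wave of spermatogenesis, during the second week of life.

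Total RNA of whole testes from mice aged 10 days was hybridised to Illumina MouseWG-6 v2 BeadChips, on which beads carry gene-specific oligonucleotides. There were 5 wild type arrays (WT 8 to WT 12), 3 arrays of SC-Rb+/- mice, which lack Rb on 1 allele in Sertoli cells (HET 5 to HET 7), and 4 of SC-RbKO mice, which lack it on both (KO 1 to KO 4). Amh-Cre males, whose Cre recombinase is driven by the anti-Müllerian hormone promoter in Sertoli cells, had been mated with females carrying floxed Rb. Rb1 encodes the retinoblastoma protein, a brake on the cell cycle. Whether wild type mice carried Cre or a floxed allele is not stated in the labels. No label says whether the RNAs were of separate mice, and a p-value here measures only the spread among the arrays, which may be technical.

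On each array 39.3 to 43.7 percent of 45281 probes were detected, which means a detection p-value under 0.05 against the array's negative controls. The groups overlapped on the brighter of the 2 Rb1 probes, at 8.83 to 9.31 in WT, 8.78 to 9.19 in HET and 8.61 to 9.26 in KO, on the log2 scale of normalized intensity used throughout. On the dimmer probe they were at 7.63 to 8.15, 7.31 to 7.44 and 7.11 to 7.74. The probes' position relative to the deleted part was not analysed, and RNA came from all testicular cells, so these readings do not check the genotypes. Sertoli cell markers were present, with 9 of 9 markers that had a named probe passing the detection filter, out of 12 listed, and so were spermatogonial markers, with 9 of 12. Arrays WT 12, HET 6 and HET 7 had been singled out by their meiotic transcripts in earlier results of the same data. They also stood apart over all 11076 genes tested. Measured from the median array, the SD across all these genes was 0.30, 0.44 and 0.37 in the 3 arrays and 0.17 to 0.24 in the other 9. Differences between groups are therefore also given without some or all of the 3. In bulk RNA, fewer cells of a type and less RNA per cell cannot be told apart.

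Detection of these meiotic genes at 10 days, the only age measured, was not far from that of all genes. Of the 30 with a probe, 18 (60.0 percent) were detected on all 12 arrays, against 49.9 percent of the 19057 genes. A further 10 (33.3 percent) were detected on no array, against 38 percent of all genes. The remaining pair were Rec114, detected on 11 arrays, and Mei4, detected on 1. Detection was complete for meiotic cohesin, where all 3 measured subunits were detected on all 12 arrays. These were Rec8, the kleisin that closes the meiotic cohesin ring, Smc1b, one of its long coiled arms, and Stag3, which binds the kleisin. In crossover maturation 4 of 5 genes were detected on all arrays, and in strand exchange 4 of 7. For the axis the count was 2 of 5, for the central region 2 of 5 and for break formation 2 of 4. These subgroups hold few genes each, and their counts were not tested against the 49.9 percent of all genes.

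The genes not above background on any array included some of the best-known components of the complex. They were the axis core gene Sycp3, the axis HORMA-domain gene Hormad1 and Trip13, whose ATPase strips HORMA-domain proteins from the axis. In the central region they were Sycp1, the transverse filament gene, and the central element genes Syce2 and Tex12. In strand exchange they were Dmc1, the meiotic recombinase, Hsf2bp, which brings BRCA2 to meiotic breaks, and Tex15. The last was Hfm1, a helicase of the crossover pathway. The lowest detection p-value was 0.0524 for Sycp1, 0.0994 for Trip13, 0.193 for Syce2 and 0.233 for Hsf2bp. For Sycp3, Hormad1, Tex12, Dmc1, Tex15 and Hfm1 it was 0.403 or more. Each of these 10 genes had 1 probe on the array.

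A probe not above background did not show that its gene was off. Of the 6 members with several probes, 5 had both a probe detected on all 12 arrays and a probe detected on none. One Spo11 probe read 7.81 to 9.86 and another 6.61 to 8.21, both detected on all arrays, while the third read 4.35 to 4.45 and was detected on none. The same held for Sycp2, at 6.70 to 8.83 and 4.38 to 4.54, and for Mnd1, at 7.11 to 8.82 and 4.33 to 4.45. Msh5 had 2 probes detected on all arrays and 2 on none. Mlh3 had 1 detected on all arrays, 1 on 6 and 1 on none. The exception was Mei4, a break formation gene, whose brightest probe was detected on WT 10 alone, with a detection p-value of 0.0449, and whose other 2 probes were detected on no array. The levels of 10 of the 11 genes that did not pass the detection filter therefore rest on 1 probe each, and these genes are not described further.

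**Figure D1:**
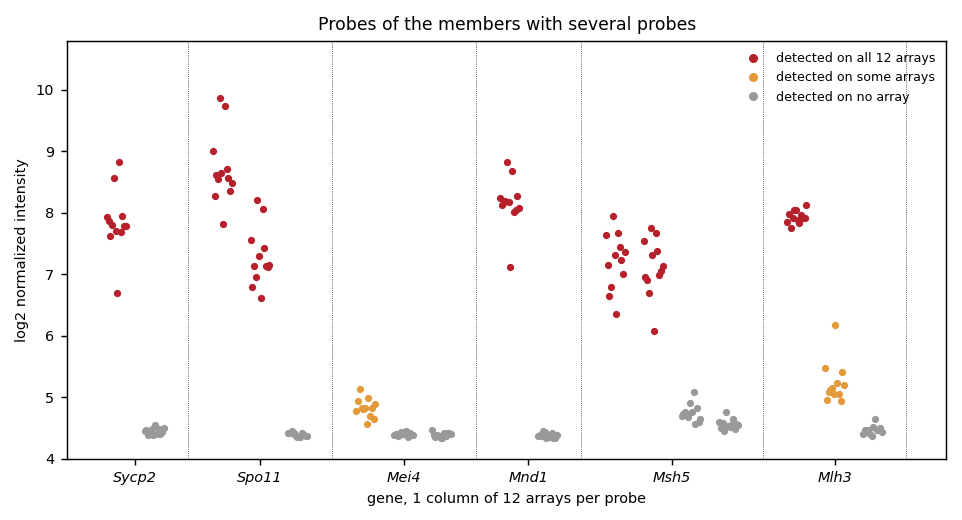
Log2 normalized intensity (vertical axis) of every probe of the 6 members with several probes; each column is 1 probe and each point 1 of the 12 arrays, coloured by the number of arrays on which the probe was detected. Bright and dark probes of the same gene stand side by side for Sycp2, Spo11, Mnd1, Msh5 and Mlh3, and all 3 probes of Mei4 lie at 5.13 or below.

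The 19 members detected on at least 3 arrays were analysed further, within a table of 11076 genes. Their levels differed between arrays more than those of most genes. The highest and the lowest array differed by at least 1 on the log2 scale, which is 2-fold, for 12 of 19 members (63.2 percent), against 17.6 percent of the 11076 genes. The median spread was 1.44 for the members and 0.63 for all genes. HET 6 was the lowest of the 12 arrays for 16 of 19 members (84.2 percent), against 25.8 percent of all genes. WT 12 and HET 7 were the 2 highest for 13 of 19 (68.4 percent), against 8.32 percent of all genes. Over the other 9 arrays 0 members had a spread of 1 or more, against 3.01 percent of all genes, and the median spread was 0.40 against 0.42. Some members still varied among those 9, since Syce1 and Msh5 each had a spread of 0.99, at the 96.9th percentile of all genes, Hormad2 0.90, Msh4 0.83 and Spata22 0.81. Those 3 arrays had been singled out by their meiotic transcripts in earlier results of the same data, so these counts describe them and are no independent support.

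**Figure D2:**
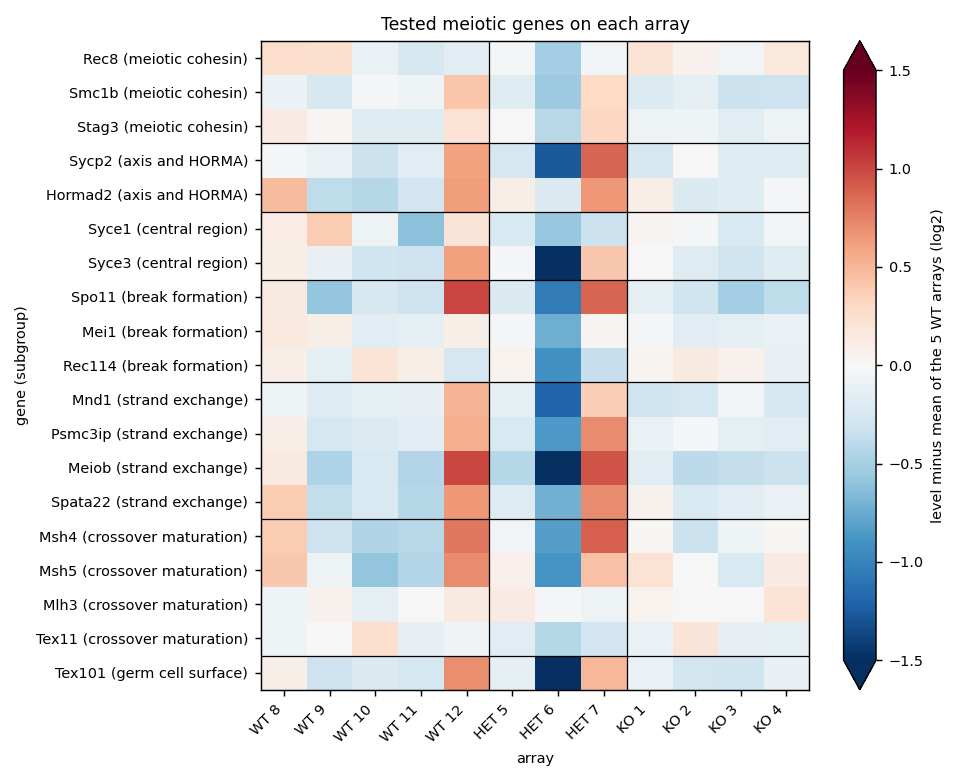
Level of each of the 19 tested genes (rows, by subgroup) on each of the 12 arrays (columns, by group), as the difference from the mean of the 5 WT arrays on the log2 scale, with colours ending at 1.5 in either direction. WT 12 and HET 7 are red and HET 6 is blue in most rows, while Rec8, Rec114 and Tex11 are not red in WT 12 or HET 7 and Mlh3 is pale throughout.

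**Figure D3:**
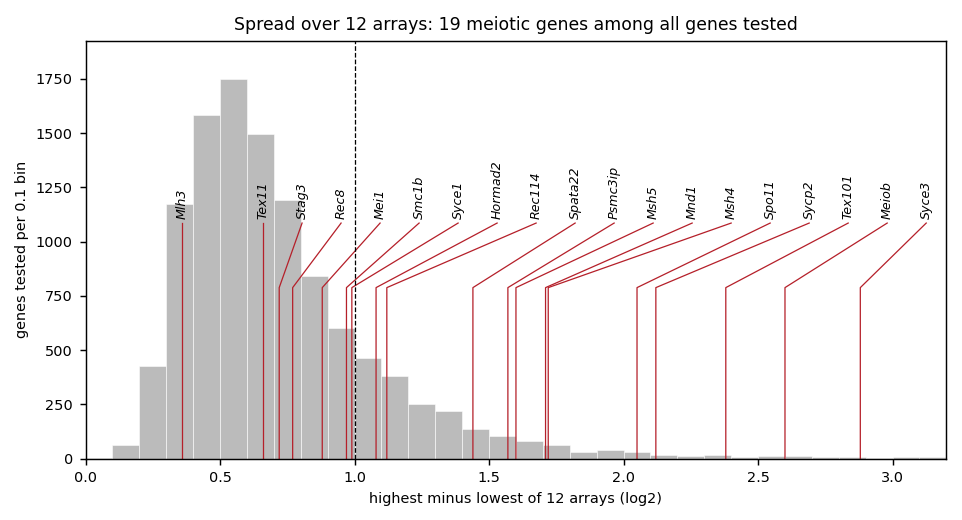
Number of genes tested (vertical axis, per 0.1 bin) by the difference between their highest and lowest array (horizontal axis, log2), with the 19 meiotic genes marked in red and a dashed line at 1. Mlh3 lies at 0.36, to the left of the bulk of genes, and Syce3, the farthest right of the members, at 2.88; a few of the 11076 genes lie beyond the right edge.

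The members fell into patterns that crossed their roles. For 12 of the 19, WT 12 and HET 7 lay above all other 9 arrays and HET 6 below them. Hormad2 shared the first feature only. Rec8, Mei1, Rec114 and Tex11 were below the 9 arrays in HET 6 but not above them in WT 12 or HET 7. Syce1 and Mlh3 did neither. Over all genes, HET 6 lay below the 9 arrays for 29.3 percent, WT 12 above them for 20 percent and HET 7 for 19.6 percent. Among the members these counts were 16, 13 and 13 of 19.

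For the 3 meiotic cohesin genes the spread was under 1, though above the median of all genes. Stag3 read 11.57, 11.47, 11.26, 11.26 and 11.66 in WT 8 to WT 12, 11.45, 11.03 and 11.75 in HET 5 to HET 7, and 11.37, 11.38, 11.28 and 11.37 in KO 1 to KO 4. HET 6 was lowest and HET 7 highest, but the whole spread was 0.72, at the 60.7th percentile of all genes. Smc1b ranged from 8.65 in HET 6 to 9.61 in WT 12, a spread of 0.97 at the 80.7th percentile. Rec8, with a spread of 0.77 at percentile 66.1, departed from the pattern at its upper end. It read 8.42, 8.39, 8.06, 7.91 and 7.99 in WT 8 to WT 12, 8.14, 7.65 and 8.11 in HET, and 8.36, 8.22, 8.11 and 8.31 in KO, so that WT 12 and HET 7 lay among the other arrays. Relative to WT, the 3 genes averaged 0.16 in WT 12, 0.19 in HET 7 and -0.49 in HET 6. For the 5 tested of 6 mitotic cohesin genes, among them Stag1, Stag2, Smc3 and the loader Nipbl, the average was 0.11, -0.11 and 0.13. HET 6 was the lowest array for 0 of these 5, though Stag1 read 6.75 there, near the low end of 6.70 to 7.24 in the other 9 arrays. As with the meiotic cohesin genes, 0 had a spread of 1 or more.

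The 2 tested axis genes both varied by more than 2-fold. Sycp2, which builds the axis core with SYCP3, read 7.93, 7.86, 7.63, 7.80 and 8.56 in WT 8 to WT 12, 7.70, 6.70 and 8.83 in HET, and 7.69, 7.95, 7.78 and 7.78 in KO. WT 12 and HET 7 stood above all others and HET 6 below, and the spread of 2.12 corresponded to a 4.36-fold difference in intensity. Hormad2, a HORMA-domain protein that marks unsynapsed axes, read 8.83, 7.98, 7.93, 8.07 and 8.99 in WT, 8.45, 8.14 and 9.01 in HET, and 8.46, 8.14, 8.18 and 8.33 in KO. Here WT 8 lay close below WT 12 and HET 7, HET 6 was within the range of the others, and the spread over the 9 arrays, 0.90, was at the 95.4th percentile of all genes.

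The central region held the member with the widest spread. Syce3, a small central element protein required to start synapsis, read 11.44, 11.22, 11.04, 11.03 and 11.95 in WT 8 to WT 12, 11.32, 9.08 and 11.74 in HET, and 11.33, 11.14, 11.04 and 11.15 in KO. Most of its spread of 2.88, at the 99.4th percentile of all genes, came from HET 6, whose difference from the WT mean was -2.26. HET 7 and WT 12 were above it by 0.40 and 0.62. Syce1, which anchors the filaments of SYCP1 in the central element, behaved differently. It read 6.81, 7.09, 6.63, 6.09 and 6.90 in WT, 6.48, 6.14 and 6.38 in HET, and 6.74, 6.68, 6.48 and 6.66 in KO, with both ends of its spread of 0.99 in the WT group, at WT 9 and WT 11.

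Break formation genes were split. Spo11, the catalytic subunit of the meiotic break machinery, read 9.00, 8.28, 8.62, 8.55 and 9.86 in WT 8 to WT 12, 8.65, 7.81 and 9.73 in HET, and 8.72, 8.56, 8.35 and 8.48 in KO. WT 12 and HET 7 were above the WT mean by 1.00 and 0.87 and the difference of HET 6 from it was -1.05. Its second bright probe gave the same order at both ends, with a spread of 1.61. Mei1 and Rec114, which act with SPO11 in making breaks, were lowest in HET 6 and not high in WT 12 or HET 7. Mei1 read 6.94 there and 7.51 to 7.82 elsewhere. Rec114 read 5.71, 5.46, 5.82, 5.70 and 5.36 in WT, 5.66, 4.70 and 5.27 in HET, and 5.65, 5.75, 5.68 and 5.50 in KO. The HET 6 reading of Rec114 was not above background, and HET 7 and WT 12 were the next lowest, both below the other 9 arrays.

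For all 4 tested strand exchange genes HET 6 was the lowest array and WT 12 and HET 7 were the 2 highest. Meiob, which binds single-stranded DNA at meiotic breaks, read 9.17, 8.58, 8.81, 8.60 and 10.04 in WT 8 to WT 12, 8.61, 7.44 and 9.98 in HET, and 8.87, 8.65, 8.68 and 8.72 in KO. Its spread of 2.60 corresponded to a 6.08-fold difference. Its binding partner Spata22 ranged from 7.45 in HET 6 to 8.88 in HET 7, with WT 12 at 8.82 and WT 8 next at 8.55. Mnd1 and Psmc3ip, which form a complex that helps DMC1 to invade the homologue, ranged from 7.11 in HET 6 to 8.82 in WT 12 and from 9.28 in HET 6 to 10.85 in HET 7. Relative to WT, these 4 genes averaged 0.67 in WT 12, 0.69 in HET 7, -1.09 in HET 6 and from -0.32 to 0.14 elsewhere.

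In crossover maturation the genes for the MSH4 and MSH5 complex, which stabilises joined DNA strands, went with the strand exchange genes. Msh4 read 7.80, 7.11, 6.97, 7.00 and 8.21 in WT 8 to WT 12, 7.38, 6.59 and 8.31 in HET, and 7.43, 7.09, 7.35 and 7.44 in KO. Msh5 ranged from 6.35 in HET 6 to 7.94 in WT 12, and from 6.08 to 7.76 with its second bright probe, between the same arrays. Mlh3, which acts in resolving crossover intermediates, was nearly level. It read 7.85, 7.98, 7.76, 7.92 and 8.05 in WT, 8.04, 7.89 and 7.83 in HET, and 7.96, 7.92, 7.91 and 8.12 in KO, a spread of 0.36, at percentile 9.91 of all genes. A dimmer Mlh3 probe, detected on 6 arrays, disagreed, with HET 6 highest at 6.17 and the others at 4.93 to 5.47. Tex11, an X-linked gene needed for crossovers, read 8.77, 8.84, 9.07, 8.71 and 8.78 in WT, 8.66, 8.41 and 8.55 in HET, and 8.73, 9.03, 8.71 and 8.70 in KO, and all 3 HET arrays lay below every WT and KO array.

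Tex101, a germ cell surface protein that is not a component of the complex, showed the pattern of the strand exchange genes. It read 9.59, 9.19, 9.28, 9.24 and 10.20 in WT 8 to WT 12, 9.37, 7.82 and 10.00 in HET, and 9.40, 9.23, 9.20 and 9.39 in KO. Its spread was 2.38, again with WT 12 and HET 7 on top and HET 6 at the bottom.

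**Figure D4:**
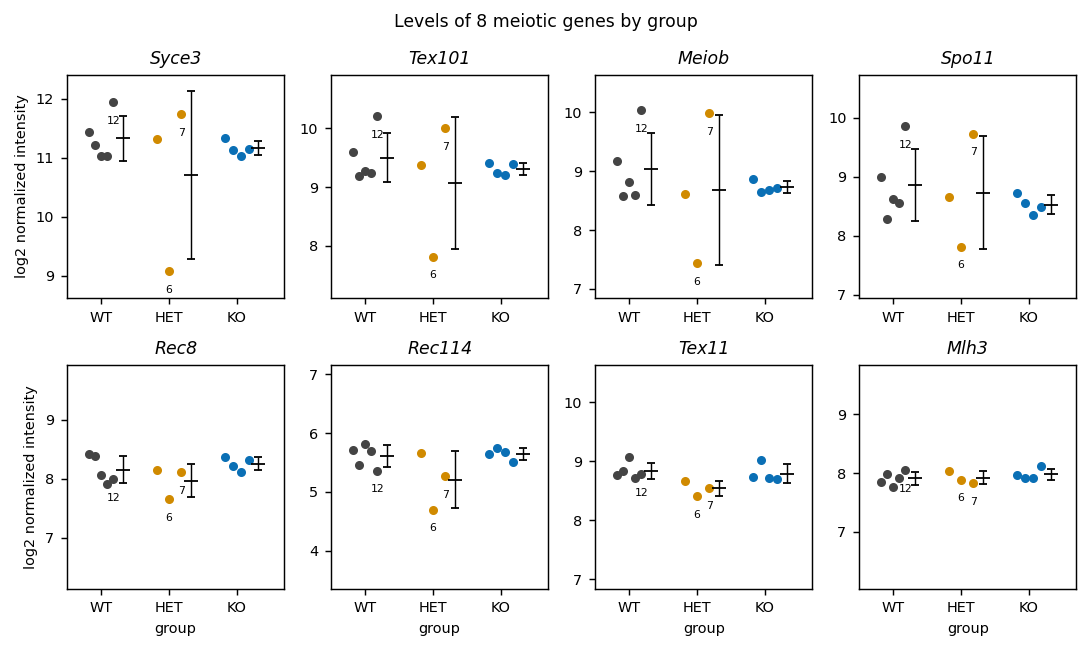
Log2 normalized intensity (vertical axis, same height of scale in each panel) of 8 genes in each array (points) by group (horizontal axis); the bar beside each group is the mean ± SD (n = 5 WT, 3 HET and 4 KO), and the numbers mark WT 12, HET 6 and HET 7. Syce3, Tex101, Meiob and Spo11 are spread out by the numbered arrays, whereas Mlh3 lies between 7.76 and 8.12 in all of them.

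Promoters of the members with the widest and the narrowest spread among those with a listed promoter are shown as sequence context for both ends of the spread. Of the 19 tested members, 16 had an entry in the RefSeq promoter table (build GRCm38.p6), and the 2 widest and the 2 narrowest of these were Syce3 and Tex101, and Mlh3 and Stag3. Stag3, despite its narrower spread, had the same extreme arrays as Syce3 and Tex101, with HET 6 below and WT 12 and HET 7 above the other 9. Each sequence is the 250 bases before the transcript start, on the gene's strand from 5′ to 3′. Syce3 and Mlh3 have 2 listed starts, of which the first listed is shown. Capitals mark matches to the motifs searched.
Syce3, chr15:89410504-89410753, minus strand: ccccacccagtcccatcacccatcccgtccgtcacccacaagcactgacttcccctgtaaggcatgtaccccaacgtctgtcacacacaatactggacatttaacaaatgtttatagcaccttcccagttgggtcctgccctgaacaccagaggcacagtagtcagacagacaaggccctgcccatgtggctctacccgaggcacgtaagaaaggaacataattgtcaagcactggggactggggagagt
Tex101, chr7:24672051-24672300, minus strand: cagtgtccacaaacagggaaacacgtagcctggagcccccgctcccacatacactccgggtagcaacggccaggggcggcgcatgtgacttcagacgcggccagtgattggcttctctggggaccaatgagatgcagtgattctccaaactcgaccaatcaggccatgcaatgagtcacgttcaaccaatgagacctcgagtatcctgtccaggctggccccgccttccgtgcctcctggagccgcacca
Mlh3, chr12:85270600-85270849, minus strand: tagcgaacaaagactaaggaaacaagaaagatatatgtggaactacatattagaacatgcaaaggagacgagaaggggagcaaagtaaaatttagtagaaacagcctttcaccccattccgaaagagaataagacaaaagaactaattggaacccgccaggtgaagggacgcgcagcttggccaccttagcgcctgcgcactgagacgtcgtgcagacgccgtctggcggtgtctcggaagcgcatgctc
Stag3, chr5:138280259-138280508, plus strand: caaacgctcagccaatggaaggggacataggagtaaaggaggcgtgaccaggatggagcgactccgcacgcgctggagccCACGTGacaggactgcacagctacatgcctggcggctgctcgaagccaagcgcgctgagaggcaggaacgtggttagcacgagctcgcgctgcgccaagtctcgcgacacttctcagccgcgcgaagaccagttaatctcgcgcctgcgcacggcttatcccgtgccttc

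Motifs were searched on both strands of the 250 bases before the start. The E-box CACGTG was in 2 of 16 member promoters, Stag3 (starting 170 bases before the transcript start) and Rec114, and in 6.05 percent of 27025 promoters. CCTCAG, the core of the site bound by STRA8 and MEIOSIN, which switch on meiotic genes, was in Hormad2 and Msh5, and in 22.2 percent of all promoters. TTCCCGC, a form of the E2F site, was in Msh5 and Smc1b, and in 3.84 percent of all. TGACGT, part of the cAMP response element, was in 0 of 16 members and in 6.56 percent of all, and AACTGTC and AACTGAC, forms of the MYB site, were in 0 of 16 members and in 2.87 and 2.47 percent of all. In the promoters shown no match overlapped another, and a match or its absence in this window says nothing of binding. The number of CG dinucleotides was 5 in Syce3, 14 in Tex101, 15 in Mlh3 and 26 in Stag3, with a median of 11.5 over the 16 members and 6 over all promoters. The 16 members had passed the detection filter and the 27025 promoters were not filtered, so these medians are of unlike sets.

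Other gene lists were read on the same arrays. Of 26 other recombination genes, 15 were tested. Relative to WT, these 15 averaged 0.25 in WT 12, 0.26 in HET 7 and -0.15 in HET 6, against -0.16 to 0.10 in the other 9 arrays. HET 6 was the lowest array for 4 of the 15. A spread of 1 or more was found for 4 of the 15, against 17.6 percent of all genes. These were Cntd1, a cyclin-like crossover gene, at 5.54 in HET 6, 7.48 in WT 12, 8.19 in HET 7 and 5.58 to 6.42 elsewhere, Kash5, which couples telomeres to dynein, with a spread of 2.32, Terb1, which fixes telomeres to the nuclear envelope, with 1.36, and Brca2, which loads recombinases on DNA, with 1.26. The 7 tested of 12 spermatocyte markers averaged, relative to WT, 1.20 in WT 12, 1.51 in HET 7 and -0.90 in HET 6, where the 19 meiotic genes averaged 0.44, 0.36 and -0.88. The mean of these markers in HET 6 lay below the -0.60 to -0.05 of the other 9 arrays. HET 6 was the lowest array for 4 of the 7, against 25.8 percent of all genes, so not every marker was low there. Ldhc read 5.25 in HET 6 against 6.34 to 8.09 in the other 9 arrays, and Clgn 8.11 against 8.02 to 8.89. Piwil1 read 6.52 against 7.21 to 7.86. Tdrd5 went the other way, at 9.21 against 8.52 to 8.88. In the order WT 12, HET 7 and HET 6, the 9 tested spermatogonial markers averaged 0.02, 0.17 and 0.14, against -0.09 to 0.13 in the other 9 arrays. The 9 Sertoli cell markers averaged -0.15, -0.25 and 0.06, against -0.15 to 0.18. That mean joins markers that differed, given here in the same order for the 4 of widest spread. Amh read 8.53, 8.18 and 9.21, against 8.78 to 9.80. Fshr read 9.50, 9.66 and 10.47, against 9.69 to 10.13. Rhox5 went the other way, at 10.74, 10.12 and 9.13, against 9.51 to 10.39. Ptgds lay within the other 9 arrays. Some markers of narrower spread went as Fshr did and others did not. Single spermatogonial markers moved in opposite directions. Ddx4 read 8.23 in HET 6 and 8.09 in HET 7, against 6.94 to 7.69 in the other 9 arrays. Nanos3 read 6.15 and 6.32 there, against 6.47 to 7.29. The averages of Leydig and peritubular markers lay within those of the other 9 arrays. So did those of macrophage markers except in HET 6, at -0.25 against -0.19 to 0.14. Endothelial markers averaged -0.14 in WT 12 and -0.38 in HET 7, against -0.09 to 0.24. The part of these cell types in the meiotic pattern was not tested.

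**Figure D5:**
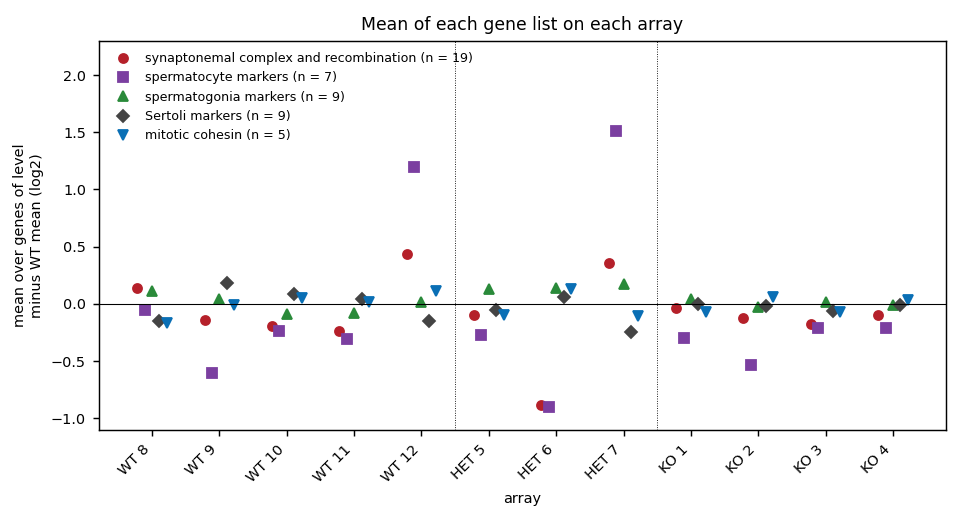
Mean over the tested genes of 5 lists of the level minus the WT mean (vertical axis, log2) on each of the 12 arrays (horizontal axis). The means of the meiotic genes and of the spermatocyte markers are high in WT 12 and HET 7 and low in HET 6, while spermatogonial, Sertoli cell and mitotic cohesin means lie between -0.25 and 0.18 in all arrays.

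No change in these genes was detectable when Sertoli cells had lost both copies of Rb1. In limma, 0 of 19 members passed an adjusted p of 0.05 in KO against WT, as did 0 of 11076 genes (0 percent). Without WT 12, HET 6 and HET 7, 2 genes passed, neither a member. At an unadjusted p under 0.05 there were 0 members, against 2.56 percent of all genes, and for 0 members did the KO and WT arrays fail to overlap, against 1.94 percent of all genes. KO was below WT for 15 of 19 members, against 49.5 percent of all genes, and the median difference was -0.10 for the members and 0.0016 for all genes. The mean over the 19 members, relative to WT, was -0.11 ± 0.06 in KO (SD, n = 4) against 0 ± 0.29 in WT (n = 5). Without WT 12 this difference was 0.00, and without WT 11 it was -0.17. The smallest p-values belonged to Smc1b, Spo11, Mnd1 and Mlh3. Smc1b read 9.11, 8.95, 9.18, 9.13 and 9.61 in WT 8 to WT 12 and 8.99, 9.06, 8.87 and 8.88 in KO 1 to KO 4, a difference of -0.25 (SE 0.16, 95 percent interval -0.60 to 0.10, limma adjusted p = 1) that was -0.14 without WT 12. Spo11 differed by -0.33 (SE 0.35), or -0.09 without WT 12, and Mnd1 by -0.21 (SE 0.25), or -0.08 without WT 12. Mlh3 differed by 0.07 (SE 0.09), and by 0.02 without KO 4.

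The KO arrays were close together. The SD over the 4 KO arrays was 0.05 to 0.19 for the 19 members, while that over the 5 WT arrays was 0.11 to 0.61. Over WT 8 to WT 11 alone, the means of the 19 members were 0.14, -0.14, -0.19 and -0.24, and over KO 1 to KO 4 they were -0.04, -0.12, -0.18 and -0.10.

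Loss of 1 copy gave no call either. In limma, 0 of 19 members and 0 of 11076 genes (0 percent) passed in HET against WT. Without HET 5 the count over all genes was 173, with 0 members among them. Tex11 and Rec114 had an unadjusted p under 0.05, as had 9.77 percent of all genes. Both were lower in HET, as were 6.09 percent of all genes at that threshold. Tex11 was the single member whose HET and WT arrays did not overlap, with HET below, against 1.66 percent of all genes, or 2.68 percent in either direction. Its difference was -0.30 (SE 0.11, 95 percent interval -0.54 to -0.06, limma unadjusted p = 0.019, adjusted p = 0.50). It was -0.23 without HET 6, -0.36 without HET 5 and -0.19 without WT 12, HET 6 and HET 7, which leaves HET 5 as the sole HET array, assumed to vary like the other groups. Rec114 differed by -0.40 (SE 0.18, limma adjusted p = 0.50), and by -0.15 without HET 6, -0.63 without HET 5 and -0.01 without the 3 arrays. Syce1 differed by -0.37 (SE 0.18), and by -0.18 without the 3 arrays. Mei1 differed by -0.24 (SE 0.16), and by 0.01 without HET 6, -0.38 without HET 7 and 0 without the 3 arrays. HET was below WT for 16 of 19 members, against 52.3 percent of all genes, with a median difference of -0.18 against -0.010. The mean over the members was -0.10 in HET 5, -0.88 in HET 6 and 0.36 in HET 7, so that the HET mean of -0.20 lay between arrays of opposite sign. It was 0.13 without HET 6 and -0.49 without HET 7.

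KO and HET did not differ detectably in these genes. In limma, 0 of 19 members and 0 of 11076 genes (0 percent) passed, and 2 members, Rec114 and Tex11, had an unadjusted p under 0.05, against 7 percent of all genes. Both were higher in KO, as were 4.58 percent of all genes at that threshold. The difference was below 0 for 6 of 19 members (31.6 percent), against 47 percent of all genes. Rec114 differed by 0.44 (SE 0.19), and by 0.18 without HET 6, 0.66 without HET 5 and -0.02 without WT 12, HET 6 and HET 7. Tex11 differed by 0.26 (SE 0.12), Rec8 by 0.28 (SE 0.15) and Syce1 by 0.31 (SE 0.19). Without HET 6 these were 0.19, 0.12 and 0.21, and without the 3 arrays, with HET 5 alone, 0.13, 0.11 and 0.16. The KO and HET arrays did not overlap for Tex11 and Syce1, 2 of 19 with KO above, against 2.93 percent of all genes, or 5.24 percent in either direction. Without HET 5, 62 genes passed, with 0 members among them. Each pair of these comparisons shares a group of arrays.

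Column names of the unnormalized table carry a further number of unstated meaning, and arrays were also compared within 2 sets, of lower and of higher numbers. WT 8, WT 9, HET 5, HET 6, KO 1 and KO 2 form the lower set. Averaged over the 19 members, KO minus WT was -0.07 within the lower set and -0.14 within the upper, which holds WT 12. HET minus WT was -0.49 in the lower set, where HET 6 lies, and 0.36 in the upper, where HET 7 is the sole HET array. For Tex11 the HET difference was -0.27 and -0.31, and for Rec114 it was -0.41 and -0.36. The lower-set value of Rec114 came from HET 6, at 4.70 and not above background. HET 5 read 5.66, between WT 8 at 5.71 and WT 9 at 5.46. The upper-set values rest on HET 7 alone.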

How the data were processed

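Whole-testis RNA was amplified, biotinylated and hybridised, per the labels' protocols. The authors deposited, per the file headers, unnormalized linear intensity with 1 detection p-value per probe and array (45281 probes, 12 arrays). The authors' processed values, deposited as linear intensity, differed from a quantile normalization of that table by at most 4.87e-08 percent and served as an alternative. Correlations between arrays of a group over genes were 0.9635 to 0.9946, and no 2 arrays held identical values.

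Intensities were corrected by normexp with an offset of 16 and quantile normalized to log2 (neqc, limma 3.58.1, R 4.3.3). The offset shrinks differences of dim probes. The filter kept probes with a detection p-value under 0.05 on 3 or more arrays, and the brightest represented each gene (11076 genes). Symbols came from the platform annotation, in which 34885 probes had 1 symbol, 18 several and 10378 none in the table used here; looked up by Entrez identifier, 34807 matched and 0 changed. One limma fit over all arrays gave 3 contrasts, with Benjamini-Hochberg adjustment over all genes; the step was tested on simulated data. Array number limits the precision. Figures used Python 3.11.15 and matplotlib 3.10.9. The members, lists, subgroups and tests were chosen with earlier results of these data known. All members are named, with fitted differences for the 4 with the smallest p-values per contrast. Context genes, at most 4 a list, were named for the largest spread, apart from Tdrd5, named as an exception within its list. Alternatives changed the background correction, offset, normalization, filter, probe rule, arrays and variance model. Probe sequences were not used here.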

Additional observations from a re-analysis of the deposited data

Results flagged for a closer look

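In WT or KO, an array stood apart from the rest of its group for 3 of the 19 members. The rule was the ratio of its gap to the group's whole range, which chance exceeds for about 1 group in 20. It was not applied to the 3 HET arrays. Over all 11076 genes an array stood apart in 6.37 percent of genes in WT and 5.57 percent in KO, shares counted per group, while the 3 members are pooled over both. Mnd1 read 8.82 in WT 12, where the nearest other WT array read 8.24. Tex11 read 9.03 in KO 2, where the nearest other KO array read 8.73. Stag3 read 11.28 in KO 3, where the nearest read 11.37. The high Mnd1 reading was in an array that also stood high in 12 further members, and the part of that array in it was not tested separately.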

How the results depend on the processing

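No paired analysis was possible because the groups share no replicate number. In every setting run 0 members passed in any contrast. Leaving out WT 12, HET 6 and HET 7, chosen after seeing the data, gave 2 called genes in KO against WT, neither a member, a difference of -0.02 for Rec114 between KO and HET, where HET 5 is then the sole HET array and is assumed to vary like the other groups, 0 members with a spread of 1 or more, and a mean KO difference of 0 over the members. Leaving out 1 array at a time gave 0 to 173 called genes in HET against WT and 0 to 62 in KO against HET, the upper counts without HET 5, a mean KO difference of -0.17 to 0, and -0.38 to 0.01 for Mei1 in HET against WT. The cause was not tested. The count of members with a spread of 1 or more was 10 to 12 under other processing of all arrays and 8 without HET 6. The member mean was 0.29 to 0.48 in WT 12, 0.18 to 0.40 in HET 7 and -0.88 to -0.58 in HET 6 under other processing. Detection at p under 0.01, or by any probe, gave 18 members on all arrays. The stricter filter dropped Rec114. The block for the lower and upper numbers changed no call. Probes near background limit 11 members.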
